A study of Homo sapiens with 12 samples.

Results

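The baseline described here is the transcriptome of AC16 cells that received a negative control siRNA and no hydrogen peroxide. Members were chosen by sample: the libraries titled siNC with numbers 1, 2 and 3, which are 3 of the 12 samples of the series. The series set control siRNA against EP300 siRNA, each with and without H2O2, in 4 groups of 3 samples. All siNC cells were grown in DMEM-based medium with 10% fetal bovine serum, were moved to serum-free medium and were transfected with control siRNA through the jetPRIME reagent. RNA was isolated with Trizol 48 h after the step that, in other groups, was the H2O2 exposure, which came 12 h after transfection. The labels do not say whether the 3 samples came from separate cultures, so each SD covers differences among these libraries alone and may reflect technical variation. No comparison between groups was made.

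AC16 is an established human line, made by fusing ventricular heart cells with SV40-transformed fibroblasts that lacked mitochondrial DNA and needed added uridine. The line divides in serum-containing medium and is used as a stand-in for heart muscle cells, which do not divide in culture. Working heart muscle depends on the sarcomere, in which myosin motors pull on actin under the control of troponin and tropomyosin, and on calcium that is released through the ryanodine receptor and returned to store by the SERCA pump. Fibroblasts make the collagens, fibronectin and proteoglycans of the extracellular matrix, and carry the cytoplasmic actins and vimentin in place of sarcomeric proteins.

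Levels are given as FPKM, fragments scaled to gene length and to the library total, so that genes of different length can be set side by side. Values in series are those of siNC 1, siNC 2 and siNC 3, and means are followed by the SD over these 3 samples. A gene was counted as detected when it had at least 1 FPKM in all 3 samples. By this rule 11396 of 17197 symbols, or 66.3%, were detected, and this share is the background for the counts of the gene lists. A further 2928 symbols stayed below 0.1 FPKM in all 3 samples, and 1042 of all symbols had no count in any of them. The median of mean FPKM was 5.98 over all symbols and 14.8 over the detected ones.

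The estimated counts summed to 18113117, 18489745 and 18144979, so that 1 count on a gene of 1 kb was worth 0.0552, 0.0541 and 0.0551 FPKM. Pairs of samples differed by more than counting error: the chi-square of their counts over genes, divided by its degrees of freedom, was 16.6 for siNC 1 and 2, 8.85 for 1 and 3, and 3.75 for 2 and 3. No library was therefore a copy of another. siNC 1 stood apart in a way that followed gene length, which is described with its values at the end of the results. Levels of the named genes are given over all 3 samples, and leaving out siNC 1 moved none of 175 such means by more than 1 SD, which for a mean of 3 holds by construction.

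By FPKM, the most abundant messages were those of protein synthesis. In counts, which are not divided by length, 6 of the top 25 symbols were ribosomal proteins, as described below. Ribosomal protein genes made up 19 of the 25 protein-coding symbols of highest mean FPKM, and the 86 cytosolic ribosomal protein symbols with a row held 23.7% ± 1.17 (SD, n = 3) of the FPKM sum. Of these 86 symbols, 85 were detected, and their median level was 1475 FPKM. RPS29, a small subunit protein, headed the list with 5310.5, 6450.47 and 6144.21 FPKM. RPS18 had 5062.99, 5631.18 and 5662.11 FPKM, RPS21 had 4341.03, 5566.55 and 5050.77 FPKM, and RPL39, of the large subunit, had 3468.95, 4336.42 and 4052.63 FPKM. siNC 1 had the lowest value of the 3 samples for each of these genes. EEF1A1, the factor that delivers aminoacyl-tRNA to the ribosome, had 2997.77, 3502.93 and 3277.71 FPKM.

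Many ribosomal protein and translation factor messages are known to begin with a C followed by an unbroken run of pyrimidines, the feature through which their translation is held together by growth signals. The starts of 6 of these genes are shown because the genes were among the most abundant and their starts differ. The sequences are RefSeq's on GRCh38.p14, 5′ to 3′ on the gene's own strand, from 10 bases before the annotated start to 20 after it. Capitals mark the pyrimidine run that contains the first transcribed base, from that base on.
RPS18 (chr6:33272065-33272094, plus strand): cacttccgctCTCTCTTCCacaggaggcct
RPS21 (chr20:62387093-62387122, plus strand): ctagctgcttCCTTTCTCTCTCgcgcgcgg
RPL39 (chrX:119791611-119791640, minus strand): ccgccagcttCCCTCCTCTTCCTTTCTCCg
RPL35 (chr9:124861938-124861967, minus strand): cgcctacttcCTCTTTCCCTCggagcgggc
EEF1A1 (chr6:73521013-73521042, minus strand): cgtgaacgttCTTTTTCgcaacgggtttgc
RPS29 (chr14:49598691-49598720, minus strand): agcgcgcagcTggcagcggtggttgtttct

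The runs were 9 bases in RPS18, 12 in RPS21, 19 in RPL39, 11 in RPL35 and 7 in EEF1A1, while RPS29 had a run of 1 at its annotated start. A start made of C and then pyrimidines up to at least base 5, read on the gene's strand, was present in 44 of the 68 ribosomal protein genes with a promoter entry (64.7%). It was present in 37 of 79 entries among the 100 most abundant symbols (46.8%) and in 12 of 84 (14.3%) among the 100 most abundant that were not ribosomal proteins. Among detected genes the share was 5.68%, among genes below 0.1 FPKM in all 3 samples it was 3.11%, and over all 27305 RefSeq promoters it was 4.04%. These shares rest on the first of the entries for each symbol, and 5191 symbols had more than 1, so an annotated start may not be the one used in AC16 cells. A match describes the letters at that position and is no measurement of translation.

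After the ribosomal proteins, the highest levels belonged to the cytoskeleton, iron storage and glycolysis. TMSB10, a thymosin that binds actin monomers, had 5115.99, 6423.63 and 5927.02 FPKM and was second of all protein-coding symbols. FTL, the light chain of ferritin, had 3982.3, 4728.63 and 4476.05 FPKM, and was 2.54 ± 0.0571-fold (SD, n = 3) higher than the heavy chain FTH1. GAPDH, a glycolytic enzyme, had 3452.48, 3812.53 and 3682.88 FPKM. The 3 samples placed these genes in the same range, with coefficients of variation of 11.3% for TMSB10, 8.64% for FTL and 5.0% for GAPDH. B2M, the light chain shared by class I antigen-presenting molecules, had 2704.8 ± 286 FPKM, and LGALS1, galectin 1, had 2681 ± 230 FPKM.

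As classes, the 23 genes of cytoplasmic actin, tubulin and their partners held 4.29% ± 0.068 of the FPKM sum, the 17 glycolytic genes 2.0% ± 0.033 and the 15 translation factors 1.47% ± 0.017. The 12 galectin, annexin and S100 genes held 1.35% ± 0.032, the 13 chaperones 1.07% ± 0.0088 and the ferritin chains 0.980% ± 0.043. All members of these 6 classes were detected. ENO1 (2181 ± 53.5 FPKM) and TPI1 (1508 ± 70.4 FPKM) followed GAPDH among the glycolytic enzymes. TUBA1B (2236 ± 133 FPKM) and ACTB (2192 ± 92.9 FPKM) were within 1 SD of each other. ANXA2, a membrane-binding annexin, stood at 1781 ± 84.6 FPKM, and PPIA, cyclophilin A, at 1552 ± 160 FPKM.

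The FPKM sum was concentrated in few symbols. The 10 highest held 7.70% ± 0.38, the 100 highest 34.5% ± 1.24 and the 1000 highest 66.2% ± 1.42 of the FPKM sum. It took 371, 297 and 319 symbols to reach 50% of it. These shares depend on division by length, which weighs short messages up. In the counts the 10 highest held 3.97% ± 0.14 and the ribosomal proteins 6.57%, and 6 of the top 25 were ribosomal proteins, with 5 genes common to both lists of 25. EEF1A1 was first by counts with a mean of 191072, and COL1A1, a collagen chain of 5607 bases by its counts and FPKM, was second with 89024 counts but only 98th by FPKM. FSTL1, a secreted glycoprotein, was among the 10 highest by counts, with 575 ± 17.6 FPKM.

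The length that the deposited values imply was mostly shorter than the annotated transcript where a gene had only 1. Over 1886 genes with 1 annotated transcript the difference had a median of 339 bases (quartiles 294 and 487), and the implied length was the shorter in 92.8%. For RPS29 the implied length was 32.1 bases against an annotated median of 677, and the gene was first by FPKM and 980th by counts. TMSB10 went from rank 2 to rank 85, with 161 against 496 bases. For such genes the deposited scale thus gave a higher level than division by the annotated length would. Ribosomal proteins were not all scaled alike. RPL37 had more counts than RPS29 (11789, 17008 and 14240 against 3087, 4227 and 3535) but only 89.56, 126.4 and 107.95 FPKM. The order among the ribosomal proteins is that of this scale.

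Genes that define working heart muscle were for the most part not detected, against the description of AC16 as a cardiomyocyte in the labels. Of 23 sarcomere genes with a row, 6 were detected (26.1%, against 66.3% of all symbols) and 10 were below 0.1 FPKM in all 3 samples. MYH6 and MYH7, the alpha and beta cardiac myosin heavy chains, MYL2, the ventricular regulatory light chain, and NEBL had no count in any sample, which allows up to 3 counts per library. In a bulk sample, fewer cells with a message and less of it per cell cannot be told apart. The list's median was 0.103 FPKM against 5.98 over all symbols.

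The detected sarcomere genes were 1 abundant gene and 5 at low level. TPM1, a tropomyosin also made by non-muscle cells, had 282.31, 294.21 and 292.25 FPKM, far above every other gene of the list. DES, the muscle intermediate filament desmin, had 2.37, 3.17 and 3.07 FPKM. TNNC1, the troponin that binds calcium in heart and slow muscle, had 2.03, 3.73 and 2.01 FPKM from 14, 27 and 14 counts. TNNI3, the cardiac inhibitory troponin, lay just inside the detection level with 1.03, 1.09 and 1.02 FPKM from 10, 11 and 10 counts, and CRYAB, a small heat shock protein, just outside it with 0.93, 1.00 and 1.20 FPKM. At this number of counts the side of the level on which such genes fell was not firm. Titin (TTN, 0.08, 0.04 and 0.05 FPKM) and sarcomeric alpha-actinin (ACTN2, 0.05, 0.05 and 0.04 FPKM) were near 0.

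The troponin T isoforms were unequal. TNNT1, the slow skeletal isoform, had 64.0, 98.75 and 89.43 FPKM, from 849, 1354 and 1194 counts. TNNT2, the cardiac isoform, had 0.07, 0.16 and 0.08 FPKM, from 1, 3 and 1 counts. The other troponin T gene of the family list, TNNT3, was not analysed here. TNNT1 made up 99.9% of the sum of TNNT1 and TNNT2, and every TNNT1 value lay above every TNNT2 value. TNNT1 and the cardiac TNNI3 are neighbours on the minus strand of chromosome 19 (GRCh38, 55132794 to 55149354 and 55151767 to 55157773), with 2412 bases between them, and their mean levels were 84.1 ± 18.0 and 1.05 ± 0.038 FPKM.

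A similar difference separated the natriuretic peptide genes. NPPB, which encodes the peptide measured in blood as a marker of heart strain, had 109.88, 104.2 and 107.7 FPKM, and NPPA, which encodes the atrial peptide, had 0.2, 0 and 0.4 FPKM. The genes lie next to each other on the minus strand of chromosome 1 (GRCh38, NPPA at 11845709 to 11848345 and NPPB at 11857464 to 11858931), with 9118 bases between them. Of the 14 secreted, oxygen and energy genes with a row, NPPB and FABP3 were the 2 detected (14.3%). FABP3, a fatty acid carrier of heart, had 4.84, 4.19 and 4.94 FPKM. Myoglobin (MB) and the muscle creatine kinases CKM and CKMT2 had no count in any sample.

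The upstream bases of 5 genes are shown, picked after their values were seen. The letters of the TATA box occurred both in genes near 0 and in a gene well above the detection level. NPPA and MYH6 were at or near 0 and hold the letters TATAAA of the TATA box, in capitals, which begin at -29 in NPPA and at -30 in MYH6, counted from the annotated start. CCN2, a secreted matrix-associated protein with 37.25, 42.43 and 37.57 FPKM, holds them from -32. The abundant TMSB10 and VIM held no TATAAA in these 60 bases, though TMSB10 has the related letters tatataag. All are RefSeq's on GRCh38.p14, on the gene's own strand.
NPPA (chr1:11847784-11847843, minus strand): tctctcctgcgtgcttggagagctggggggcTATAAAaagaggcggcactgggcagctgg
MYH6 (chr14:23408274-23408333, minus strand): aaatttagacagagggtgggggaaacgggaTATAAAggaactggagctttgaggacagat
CCN2 (chr6:131951373-131951432, minus strand): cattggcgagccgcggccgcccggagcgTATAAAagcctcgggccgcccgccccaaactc
TMSB10 (chr2:84905596-84905655, plus strand): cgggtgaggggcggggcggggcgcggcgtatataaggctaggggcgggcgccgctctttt
VIM (chr10:17228181-17228240, plus strand): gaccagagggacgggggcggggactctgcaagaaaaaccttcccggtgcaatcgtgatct

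TATAAA was searched on the gene's strand from 45 to 19 bases before the annotated start. It was present in 1.48% of the promoters of detected genes, in 7.40% of those of genes below 0.1 FPKM in all 3 samples, and in 2.61% of all promoters of the table. Among the 100 most abundant symbols it was present in 4 of 79 (5.06%), among the 100 most abundant that were not ribosomal proteins in 7 of 84 (8.33%), and in the fibroblast list in 3 of 17 (17.6%). The share thus did not follow the level in 1 direction. CpG dinucleotides showed a wider range. The median promoter held 27 CpG in 300 bases among detected genes and 8 among those below 0.1 FPKM.

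Detection followed the number of CpG dinucleotides in the promoter up to about 20 and was level above that. Of genes with 0 to 4 CpG in the 300 bases, 24.9% were detected, with 36.7% at 5 to 9, 65.9% at 10 to 19 and 81.6% at 20 to 29. The share was 82.9% at 30 to 39 and 84.9% at 40 or more. The median level was 0.073 FPKM at 0 to 4 CpG, 5.22 FPKM at 10 to 19 and 12.2 FPKM at 20 to 29. This is a description across genes of 1 cell line, and it covers the 13528 symbols that had a promoter entry.

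**Figure D1:**
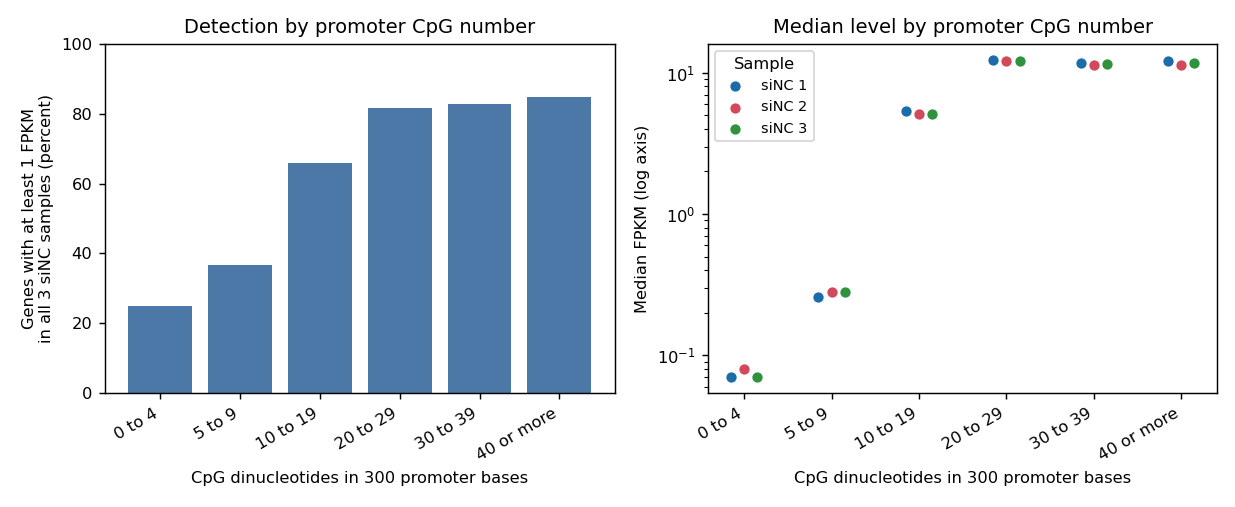
Left, percent of genes with at least 1 FPKM in all 3 siNC samples by the number of CpG dinucleotides in 300 promoter bases (bars from 0). Right, the median FPKM of each bin in each siNC sample on a log axis, where the 3 samples lie together and the bins from 20 CpG upward sit between 11.3 and 12.3 FPKM.

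Transcription factors of the heart were detected in part. Of 15 with a row, 6 were detected (40%), 6 were below 0.1 FPKM in all 3 samples and 3 lay between, and NKX2-5, TBX5 and HAND1 were not analysed here. SRF, which drives actin and muscle genes and is active in most cells, had 15.71, 16.39 and 15.7 FPKM. MEF2A had 15.44, 12.84 and 13.46 FPKM, while MEF2C, its relative with a known part in heart formation, had 0.05, 0.07 and 0.02 FPKM. GATA6 had 13.05, 12.92 and 12.61 FPKM and GATA4 had 4.3, 4.86 and 5.48 FPKM, a ratio of 2.66 ± 0.37 in which the samples of the genes did not overlap. GATA2, better known from blood and endothelium, lay between them at 10.2 ± 0.70 FPKM. TBX3 had 7.3, 6.33 and 6.13 FPKM, HAND2 0.36, 0.39 and 0.36 FPKM, and TBX20, ISL1 and IRX4 were at or near 0.

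Of 19 calcium handling and ion channel genes 2 were detected (10.5%), and 11 were below 0.1 FPKM in all 3 samples. ATP2A2, the SERCA pump, had 87.25, 65.86 and 74.73 FPKM and made up 95.3% ± 0.94 of the SERCA sum. Its partner phospholamban (PLN) had 0.06, 0 and 0 FPKM, and the cardiac ryanodine receptor RYR2 had 0, 0.01 and 0.01 FPKM. The release channels present were IP3 receptors, with ITPR3 at 14.2 ± 1.03 FPKM and ITPR2 at 2.43 ± 0.31 FPKM, while RYR1, RYR2 and RYR3 were each at or below 0.0167 FPKM on average. JPH2, a junction protein of the calcium store, had 1.67, 1.37 and 1.48 FPKM. The sodium-calcium exchanger SLC8A1 had 0.81, 0.66 and 0.65 FPKM. KCNQ1 and KCNH2, channels of cardiac repolarisation, had no count.

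**Figure D2:**
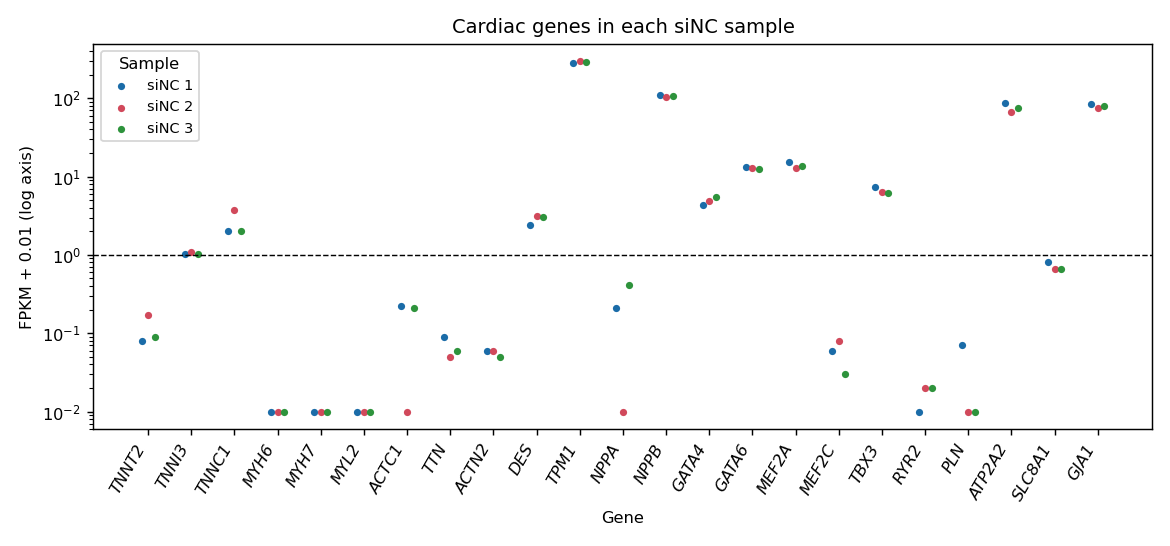
FPKM plus 0.01 on a log axis for 23 cardiac genes in each siNC sample, with the detection level of 1 FPKM dashed. TPM1, NPPB, ATP2A2 and GJA1 sit far above the level in all 3 samples, and MYH6, MYH7 and MYL2 sit at the bottom, which stands for 0.

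Fibroblast and matrix genes were nearly all present. Of 28 genes 26 were detected (92.9%), none was below 0.1 FPKM in all 3 samples, and the median was 33.7 FPKM. VIM, the intermediate filament of mesenchymal cells, had 1389.47, 1566.92 and 1482.76 FPKM. COL1A1 had 917.07, 814.86 and 878.92 FPKM and its partner chain COL1A2 188.38, 186.05 and 195.06 FPKM, a ratio of 4.58 ± 0.25. The collagen I fibre is built with more of the first chain than the second, and how this bears on the RNA ratio was not tested. SPARC, a collagen-binding matrix protein, had 741.75, 736.87 and 743.22 FPKM, the smallest relative spread of the highest members. FN1, fibronectin, had 238.42, 183.65 and 203.71 FPKM, highest in siNC 1, and COL3A1 had 164.61, 159.57 and 169.73 FPKM.

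Other members of the list were at lower levels. LUM, a matrix proteoglycan, had 73.6 ± 2.92 FPKM, THY1 36.8 ± 2.81 FPKM, FAP 28.4 ± 1.18 FPKM and TWIST1, a mesenchymal transcription factor, 24.5 ± 2.49 FPKM. PDGFRB had 23.58, 19.82 and 22.1 FPKM, while PDGFRA, the receptor commonly used to mark cardiac fibroblasts, had 1.15, 0.86 and 1.09 FPKM and fell short of the level in siNC 2. PRRX1 was the other undetected member, at 0.25, 0.22 and 0.21 FPKM. TCF21, which marks the fibroblast lineage that arises from epicardium, had 1.15, 1.45 and 1.14 FPKM. Over the 41 collagen genes with a row, 24 were detected (58.5%), below the background share.

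Genes of contractile smooth muscle and myofibroblasts were mostly present, with 10 of 12 detected (83.3%). TPM2 had 292.13, 358.9 and 359.22 FPKM, CALD1, caldesmon, 172.86, 148.39 and 158.76 FPKM, and TAGLN, SM22, 78.97, 83.85 and 78.59 FPKM. CNN1, calponin, varied little, at 36.71, 37.26 and 36.58 FPKM. ACTA2, the alpha actin that defines myofibroblasts, had 2.01, 3.18 and 2.14 FPKM, below the enteric gamma actin ACTG2 at 9.05, 8.53 and 8.7 FPKM. MYH11, the smooth muscle myosin heavy chain, had 0.11, 0.07 and 0.04 FPKM.

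Mesothelial and epicardial genes were detected in 6 of 8 cases (75%). BNC1, a zinc finger protein of mesothelium and keratinocytes, had 25.14, 20.97 and 22.81 FPKM. TBX18, a T-box factor of epicardium, had 9.29, 7.42 and 7.16 FPKM, ALDH1A2, which makes retinoic acid, 5.36, 5.13 and 4.95 FPKM, and WT1 2.84, 2.42 and 2.61 FPKM. KRT17 had 14.63, 15.24 and 13.44 FPKM and MSLN, also a mesothelial marker, 4.56, 4.93 and 4.71 FPKM. The undetected members UPK3B and CALB2 averaged 0.0467 and 0.05 FPKM. The list holds few genes, and its share was near that of all symbols.

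The lists of other cell types were detected in part. Endothelial genes were detected in 3 of 12 cases (25%). ENG had 33.46, 34.02 and 35.4 FPKM, EGFL7 24.28, 34.3 and 27.12 FPKM and KDR 1.48, 1.18 and 1.39 FPKM. Among the undetected, PECAM1 had 0.15, 0.13 and 0.2 FPKM, CDH5 0.01, 0 and 0.01 FPKM and ERG no count. Epithelial genes were detected in 5 of 12 cases (41.7%). The simple keratins KRT18 (247.26, 272.17 and 278.33 FPKM) and KRT8 (61.11, 67.31 and 63.41 FPKM) were high. KRT19, KRT7 and EPCAM passed the level, averaging 4.61, 1.67 and 1.63 FPKM, and E-cadherin, CDH1, had 0.27, 0.26 and 0.26 FPKM. KRT8 and KRT18 overlap on opposite strands in the annotation and the strand setting of the counting is not given in the sources used here, so reads of the shared bases may have been assigned to either. Leukocyte genes were detected in 2 of 8 cases (25%), CD68 at 20.75, 25.72 and 23.73 FPKM and CD14 at 5.42, 6.64 and 5.55 FPKM, against 0.06, 0.07 and 0.07 FPKM of PTPRC, the surface protein of all leukocytes.

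Pericyte genes were detected in 3 of 8 cases (37.5%). MCAM had 44.87, 43.46 and 44.88 FPKM, CSPG4 29.43, 24.23 and 26.9 FPKM and NOTCH3 2.21, 1.85 and 2.24 FPKM. The undetected RGS5 had 0.45, 0.51 and 0.38 FPKM. None of 9 skeletal muscle genes was detected. Embryonic myosin MYH3 came nearest at 1.03, 0.85 and 0.84 FPKM, and MYOD1, the master factor of that lineage, had no count. Neuronal and glial genes were detected in 2 of 11 cases (18.2%), which were TUBB3 at 58.65, 63.3 and 64.05 FPKM and SNAP25, a protein of vesicle fusion, at 8.49, 8.77 and 9.72 FPKM. Hepatocyte and adipocyte genes were detected in 2 of 10 cases (20%), CIDEC at 2.10 ± 0.33 and PPARG at 1.34 ± 0.21 FPKM, with albumin (ALB) near 0.

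Of 8 pluripotency genes, LIN28A and POU5F1 were detected (25%). LIN28A, an RNA-binding protein that blocks maturation of let-7 miRNAs, had 4.79, 3.82 and 3.99 FPKM, and its relative LIN28B had 0.01, 0.01 and 0 FPKM. POU5F1 had 1.31, 1.31 and 1.11 FPKM, close to the level, and this gene has near-identical pseudogene copies that could share its reads. NANOG had 0.06, 0 and 0 FPKM. No lineage list other than the fibroblast, smooth muscle and mesothelial ones had a share of detected genes above the 66.3% of all symbols.

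**Figure D3:**
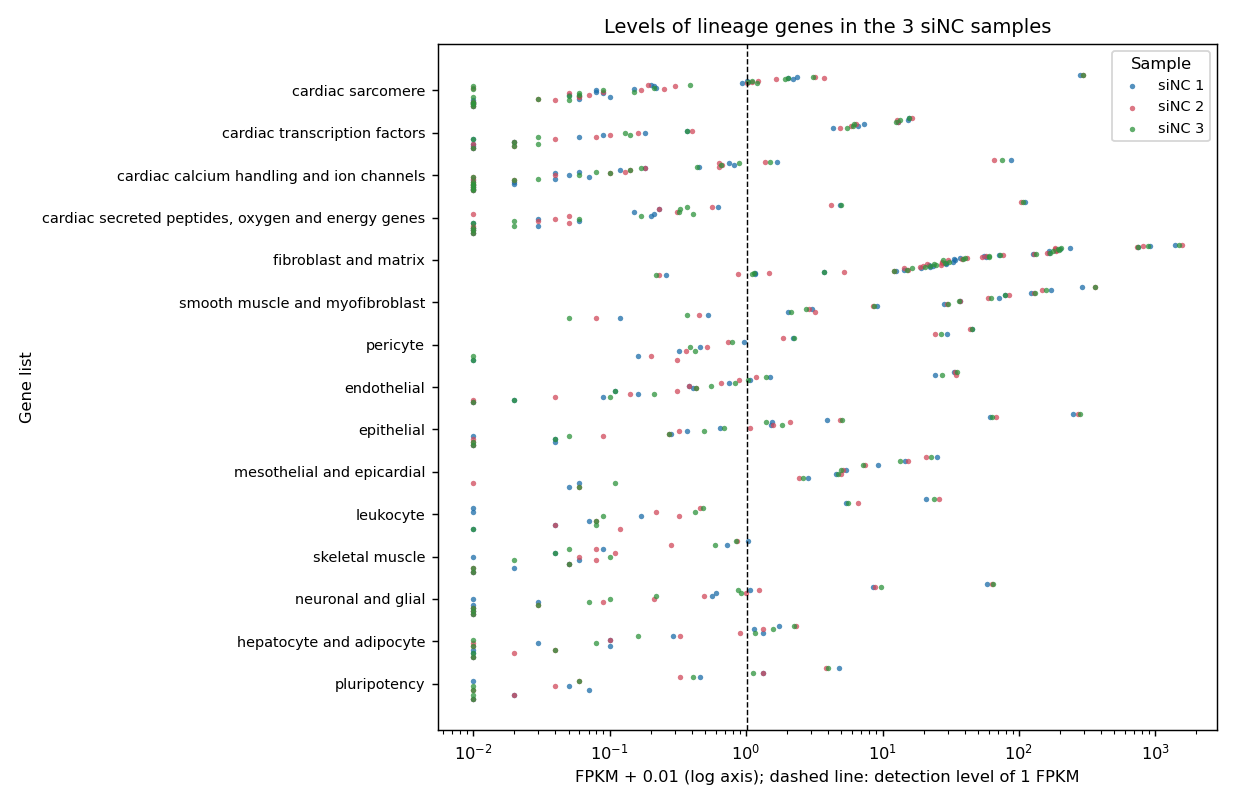
FPKM plus 0.01 on a log axis for every gene with a row in 15 lineage lists, 1 point per gene and siNC sample, with the detection level of 1 FPKM dashed. Nearly all fibroblast and most smooth muscle genes lie right of the line, and most genes of the 4 cardiac lists lie left of it.

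In the actin, myosin and alpha-actinin families, isoforms made by non-muscle cells held most of the sum. ACTB and ACTG1, the cytoplasmic actins, held 53.2% ± 0.20 and 46.5% ± 0.21 of the actin FPKM, and cardiac actin ACTC1 0.00338%. Among conventional myosin heavy chains MYH9 (193.44, 172.01 and 186.5 FPKM) held 85.9% ± 0.30 and MYH10 13.6% ± 0.23. MYL6, the light chain of non-muscle and smooth muscle myosin, held 63.9% ± 0.16 of the light chains. The alpha-actinins were ACTN4 (51.8% ± 0.46) and ACTN1 (48.2% ± 0.44). The named leading members kept their order in each sample, and the SDs of their shares were under 1 percentage point.

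Enzymes and carriers also differed between isoforms. The brain-type creatine kinase CKB held 98.8% ± 0.16 of its family at 46.6 ± 5.37 FPKM. LDHA and LDHB, the muscle-type and heart-type subunits of lactate dehydrogenase, held 56.6% ± 2.48 and 43.3% ± 2.46. HK1 exceeded HK2, the isoform of insulin-responsive muscle, 11.3 ± 1.49-fold. SLC25A5, an adenine nucleotide carrier of dividing cells, exceeded SLC25A4, that of heart and muscle, 169 ± 6.03-fold in FPKM. The difference was smaller in counts, at 8513, 10399 and 9647 against 199, 252 and 241. The glucose carriers SLC2A1 and SLC2A3 were equal within their spread, with a ratio of 0.991 ± 0.030, and the insulin-responsive SLC2A4 had 0.25 ± 0.095 FPKM.

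In some families a member known from heart was prominent. The connexin GJA1, which joins working heart muscle cells but is also made by fibroblasts, held 83.5% ± 0.57 of the connexin sum at 83.8, 75.41 and 80.26 FPKM. CPT1B, the muscle form of the enzyme that admits fatty acids to mitochondria, exceeded the liver form CPT1A 6.46 ± 1.05-fold in FPKM. That excess was smaller in counts, at 427, 507 and 463 against 155.07, 136 and 154.36. CPT1C, known from brain, exceeded CPT1B 2.47 ± 0.17-fold in FPKM. Of 8 listed cadherins 4 were detected, and CDH13 (57.9% ± 2.57) and CDH2 (33.7% ± 2.05), the cadherin of heart muscle and mesenchyme, held most of the sum. Utrophin, UTRN, exceeded its muscle relative dystrophin, DMD, 10.9 ± 0.59-fold.

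**Figure D4:**
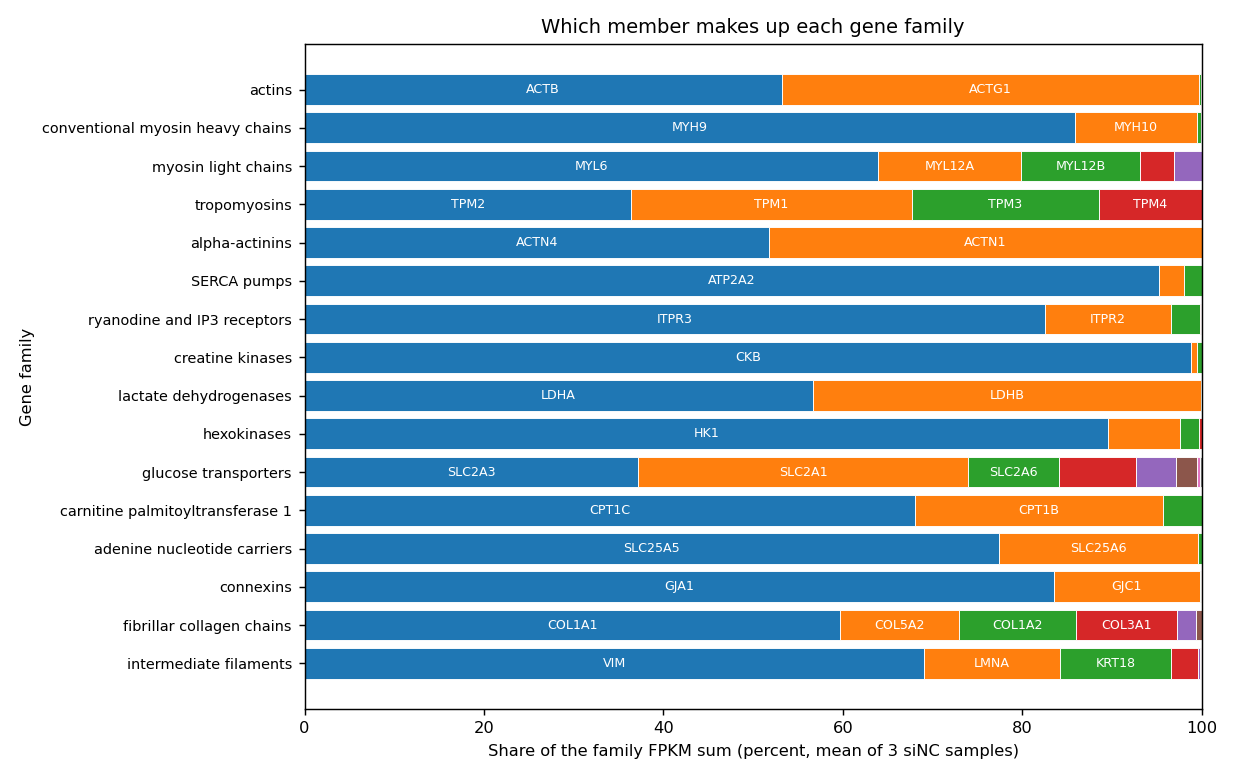
Share of each family's FPKM sum held by each member, as the mean of 3 siNC samples, for 16 families, with the larger members named. MYH9, ATP2A2, ITPR3, CKB, HK1 and GJA1 fill most of their bars, and the actins, alpha-actinins and glucose carriers are shared between members.

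Genes of the dividing cell were present. Each of the 20 listed proliferation genes was detected, and together they held 0.477% ± 0.011 of the FPKM sum. PCNA, the sliding clamp of DNA replication, had 387.9, 462.21 and 425.27 FPKM, TYMS, thymidylate synthase, 220.37, 274.61 and 246.15 FPKM, and MKI67 53.29, 39.59 and 45.01 FPKM. Inhibitors of the cycle differed in level. CDKN2A, whose p16 product inhibits CDK4 and CDK6, had 305.34, 362.6 and 348.82 FPKM, CDKN1A, p21, had 110.76, 118.16 and 113.03 FPKM, and CDKN2B, p15, had 9.52, 8.81 and 9.17 FPKM. RB1, which the SV40 large T protein binds, had 34.2 ± 3.69 FPKM. CCND2 was the undetected member of the 16 listed cell cycle regulators, while CCND1 had 14.3 ± 1.40 and CCND3 42.2 ± 2.05 FPKM. TERT, the telomerase enzyme, had 1.4, 1.39 and 1.5 FPKM.

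All 11 genes of pyrimidine synthesis and salvage were detected, including DHODH, the mitochondrial step of uridine synthesis, at 6.57, 7.1 and 7.24 FPKM. TK1, thymidine kinase, was the highest at 428.13, 487.86 and 481.56 FPKM. Of 77 nuclear-encoded respiratory chain genes 75 were detected (97.4%). The 77 genes held 2.94% ± 0.12 of the FPKM sum but 0.910% ± 0.078 of the counts. COX6A1, the broadly made isoform of a cytochrome oxidase subunit, had 922.97, 1005.53 and 1066.6 FPKM. Mitochondrially encoded genes were not analysed here. Fatty acid oxidation genes were detected in 18 of 20 cases (90%), led by ACADVL at 118 ± 8.25 FPKM, and the fatty acid importer CD36 was below the level at 0.17, 0.14 and 0.06 FPKM.

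Receptors through which heart cells are commonly stimulated were present in part, with 13 of 28 detected (46.4%). The adenosine receptor ADORA2B (20.41, 21.13 and 21.03 FPKM) and the glucocorticoid receptor NR3C1 (22.53, 17.76 and 18.88 FPKM) were highest and overlapped. AGTR1, the angiotensin II receptor, had 5.24, 4.36 and 4.41 FPKM. The beta-adrenergic receptor ADRB1 was below the level at 0.61, 0.55 and 0.36 FPKM. The endothelin receptor EDNRA had 0.35, 0.40 and 0.46 FPKM and EDNRB was near 0. IGF1R exceeded INSR, the insulin receptor, 47.1 ± 3.76-fold, at 7.22 ± 1.17 FPKM.

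Positional genes were present as well. Of 39 HOX genes 24 were detected (61.5%), near the background share. HOXB2 was highest at 26.62, 30.32 and 30.36 FPKM, followed by HOXA10 at 15.61, 16.74 and 17.09 FPKM and HOXB7 at 14.52, 17.38 and 14.2 FPKM. None of 115 olfactory receptor symbols was detected. Of 8 globins 2 were detected (25%). HBE1 and HBG2, the embryonic and fetal beta-type chains, passed the level at 1.94 and 1.83 FPKM on average. The adult chains HBB, HBA1 and HBA2 had no count. All 8 globins together held 0.000126% of the counts, so these levels rest on few counts. HBG2 has a near-identical copy, HBG1, with which its reads could be shared.

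EP300, the acetyltransferase that the siRNA of other groups targets, had 12.46, 8.45 and 9.84 FPKM (10.3 ± 2.04) in these control cells. Its paralog CREBBP had 12.88, 10.00 and 10.46 FPKM (11.1 ± 1.55), so that the samples of the genes overlapped. MLF1, which a treatment field of the labels names where titles name EP300, had 27.71, 27.66 and 30.39 FPKM. For EP300 and CREBBP siNC 1 was the highest sample, and both have long transcripts.

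Few symbols in the tables were labelled non-coding. Labels came from matching to RefSeq by symbol or synonym and were not checked gene by gene. A labelled symbol may therefore encode a protein. Of 15 symbols labelled lncRNA 2 were detected, C17orf49 at 60.09, 78.75 and 76.22 FPKM and LOC389831 at 23.81, 24.92 and 24.6 FPKM. Below the level were PCOTH (1.13, 0.24 and 0.14 FPKM), LOC107984638 (0.69, 0.21 and 0.59 FPKM) and LOC105377310 (0.19, 0.05 and 0.14 FPKM). MTRNR2L2 (2636.15, 2292.67 and 2307.84 FPKM) and MTRNR2L8 (2282.63, 2088.45 and 2146.38 FPKM) are near-identical to mitochondrial ribosomal RNA, and their values are uncertain because such reads cannot be assigned to one copy.

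The spread between samples was small for most genes and followed the implied gene length. Over the 9024 genes with a mean of at least 5 FPKM the median coefficient of variation was 6.44%, and 7046 genes (78.1%) were under 10% while 97 (1.07%) were over 20%. In genes under 0.5 kb of implied length the median log2 deviation from the mean of the samples was -0.15 in siNC 1, 0.12 in siNC 2 and 0.04 in siNC 3. In genes over 8 kb it was 0.19, -0.14 and -0.04. Across 9023 genes the rank correlation of the deviation with length was 0.745, -0.703 and -0.329, in that order, as a description of these libraries, since the 3 deviations of a gene sum to 0. The median coefficient of variation was 3.51% without siNC 1, 5.73% without siNC 2 and 7.25% without siNC 3. The part of RNA integrity or library preparation in this was not tested.

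**Figure D5:**
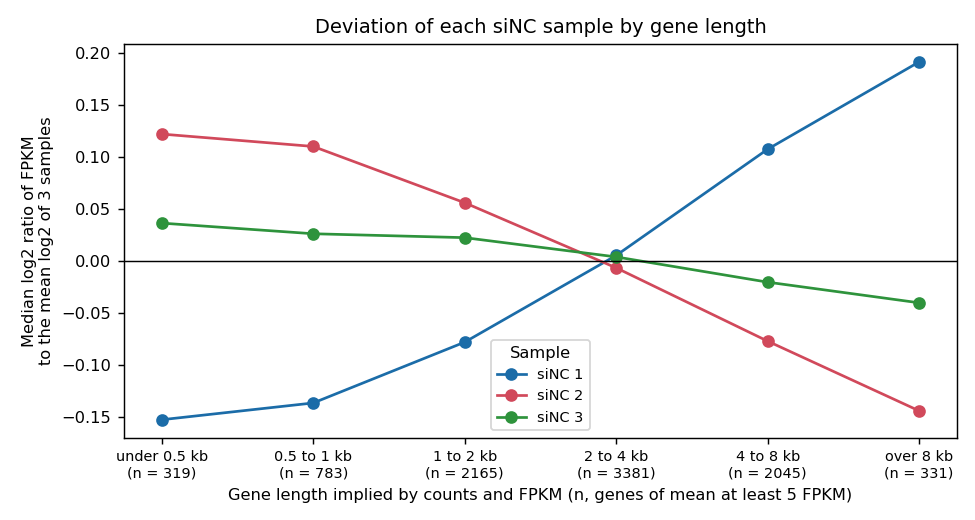
Median log2 ratio of FPKM in each siNC sample to the mean log2 of the 3 samples, by gene length implied by counts and FPKM, for genes with a mean of at least 5 FPKM. siNC 1 runs from -0.15 for the shortest genes to 0.19 for the longest, siNC 2 runs the opposite way from 0.12 to -0.14, and siNC 3 stays within 0.04 of 0 on this log2 scale.

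The genes of highest variation were mostly copies or read-through forms. SULT1A4 had 25.96, 0.21 and 0 FPKM and its near-identical copy SULT1A3 0.01, 33.19 and 27.72 FPKM, so that siNC 1 differed from the other samples in opposite directions for the copies. Their sum was 25.97, 33.4 and 27.72 FPKM, with a coefficient of variation of 13.4%. The other 8 of the 10 highest were LOC102723728, ZNF66, SPATA24, CBWD3, FMC1-LUC7L2, MAGED4, USP15 and NOTCH2NLB, with coefficients of 31.4% to 44.2%. USP15, a deubiquitinase, had 10.73, 6.42 and 6.42 FPKM from 1383, 1186 and 1131 counts, so that its FPKM differed more than its counts.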

How the data were processed

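RNA from AC16 cells with control siRNA was measured in 3 samples. HISAT, Bowtie2 and the GRCh38.p13 build are named, per the submitters' processing notes. What each tool did, its version, how reads were counted, and against which annotation and strand, is not given in the sources used here. The authors deposited FPKM rounded to 2 decimals and estimated counts for 17197 gene symbols, and columns were matched to samples by title.

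From these, means, SDs, detection counts (at least 1 FPKM in all 3 samples), shares of the FPKM sum and implied lengths (count divided by FPKM and library total) were computed with pandas 2.3.3 in Python 3.11.15. Computations were tested on simulated data. No test was run, since no groups were compared. Depth was 18113117 to 18489745 counts per sample, and 3 counts was taken as the limit of a count of 0. TMM factors of edgeR 4.0.16 in R 4.3.3 were used in 1 alternative. Positions and transcript lengths are from GENCODE release 29, and biotypes and promoters from RefSeq (GRCh38.p14), which matched 17121 symbols (99.6%).

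The members and lists were chosen with earlier results of these data known. Named genes are the 25 of highest mean FPKM, up to 6 highest members of each list, and defining markers under 0.1 FPKM. Also named are EP300, CREBBP, MLF1, the 10 most variable and 5 symbols labelled non-coding. Other names, the promoter motifs and CpG counts, the ratios and the respiratory, collagen, HOX, globin and olfactory groups were chosen after values were seen. Alternatives were other detection levels, counts in place of FPKM, rescaling, filters and leaving out each replicate. Some genes covered by this rule are not reported here.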

Additional observations from a re-analysis of the deposited data

How the results depend on the processing

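No paired analysis was possible because no groups were compared and every result comes from no test. The number of detected genes, 11396, became 12079 at 0.5 FPKM, 10518 at 2 FPKM and 12718 at 10 counts or more, within 1.5 times. Short lists moved further. At 0.5 FPKM the detected members were 4 for calcium and channels, 5 endothelial, 1 skeletal and 4 neuronal. At 2 FPKM they were 3 for the sarcomere, 1 for calcium and channels, 3 epithelial, 0 hepatocyte and adipocyte and 1 pluripotency. At 10 counts they were 6 for calcium and channels, 4 for secreted, oxygen and energy genes, 6 pericyte, 7 endothelial, 1 skeletal and 4 neuronal, and rescaling each sample to the same sum gave 1 skeletal. Without division by length, in counts, the top 10 and 100 held 3.97% and 16.2%, ribosomal proteins 6.57%, actin and tubulin 2.39%, glycolysis 1.79%, translation factors 2.05%, galectins and S100 0.466%, chaperones 1.09%, iron storage 0.407%, proliferation 0.708%, cell cycle regulators 0.174%, pyrimidine genes 0.129%, fatty acid genes 0.111% and receptors 0.037%. The median coefficient of variation ran from 3.51% to 7.25% as each replicate was left out, lowest without siNC 1, and was 7.13% at a mean of at least 1 FPKM. Leaving out a replicate kept all 16 detection counts within 1.5 times. The leading member's share moved by more than 1 SD in 19 of 29 families in counts. At the depth of these 3 samples, genes near 1 FPKM rest on few counts, and whether they pass the level depends on the level.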
